A study of Mus musculus with 4 samples.

Results

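The proximal T cell receptor (TCR) signalling genes examined here were 9 of the 24369 genes quantified. They were chosen by name, by a rule that used no measured value although earlier results of these data were known, as the CD3 and zeta chains of the receptor complex (*Cd3d*, *Cd3e*, *Cd3g* and *Cd247*), the coreceptor *Cd4*, the kinases *Lck* and *Zap70*, and the adaptors *Lat* and *Lcp2*. To ask whether ectopic Tox altered their mRNA levels, 2 libraries of a Tox retrovirus group (Tox RV, libraries Tox1 and Tox2) were set against 2 of an empty vector group (EV RV, libraries EV1 and EV2). Naïve CD4 T cells were taken from the spleens of WT C57BL/6 mice, whose age is not given for this experiment. Both groups were activated with coated anti-CD3 plus anti-CD28 in solution and human IL-2, without polarizing cytokines, and transduced on day 2. The empty vector was MSCV-IRES-eGFP and the Tox vector was MSCV-Tox-IRES-eGFP, so in both groups the viral promoter also drove GFP. The cells were stimulated again on day 5 and sorted as CD4+ GFP+ cells. The methods give biotinylated anti-CD3 and streptavidin for this step, whereas the design text names anti-CD3 and anti-CD28. The sample labels list anti-CD28 in the place where the methods give IL-2.

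The TCR itself has almost no cytoplasmic tail and signals through the CD3 and zeta chains, which carry paired tyrosines called ITAMs. After binding of peptide and MHC, Lck, which is held on CD4, phosphorylates the ITAMs and ZAP-70 docks on them. ZAP-70 then phosphorylates LAT at the membrane and SLP-76 (encoded by *Lcp2*), which together assemble the complex that activates calcium, Ras and NF-κB signals. In these cultures CD3 was the target of the stimulating antibody and CD4 was part of the sort gate, and this was the same for both groups.

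The libraries held 46989997 to 74548723 expected counts, the unnormalized read estimates per gene deposited by the authors. The 45S pre-rRNA *Rn45s* took 24.7% of the counts of EV1 and 7.14% to 11.97% of the others. In CPM (counts per 1000000), *Tox* was at 11.7 (EV1), 5.73 (EV2), 121 (Tox1) and 99.9 CPM (Tox2), so each library lay on the side of its label. The T cell markers *Thy1*, *Cd28*, *Cd2* and *Zbtb7b* summed to 1480 (EV1), 1094 (EV2), 1139 (Tox1) and 1103 CPM (Tox2). *Cd8a* and *Cd8b1* summed to 3.88 to 4.77 CPM, the 5 B cell markers to 1.16 to 1.62 CPM and the 6 myeloid markers to 4.03 to 5.61 CPM over all libraries. The 4 NK cell markers summed to 52.0 (EV1), 12.6 (EV2), 28.1 (Tox1) and 7.04 CPM (Tox2). *Ncr1*, *Ms4a1* and *Pax5* had 0 counts in every library. In bulk RNA, fewer cells that express a gene and less RNA per cell cannot be told apart.

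All 9 genes were strongly expressed. On the TPM scale (transcripts per 1000000), which corrects for transcript length, their means over the 4 libraries lay above those of 96.8% to 99.3% of all genes. *Cd3g* was the most abundant, at 528 ± 109 TPM (SD, n = 2) in EV RV cells and 661 ± 144 TPM (SD, n = 2) in Tox RV cells. *Lat* followed at 493 ± 40.8 and 533 ± 41.1 TPM, and *Cd3d* at 358 ± 24.6 and 375 ± 30.2 TPM. The level of *Cd3g* exceeded that of *Lat* in 3 of 4 libraries only, so their order was not fixed. *Lat* lay above *Cd3d* in 4 of 4 libraries with no overlap between their ranges, the only neighbours in the order of mean levels for which this held.

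*Lck* was at 305 ± 88.8 TPM in EV RV and 336 ± 40.8 TPM in Tox RV cells. *Cd247* and *Cd4* were next, at 231 ± 25.6 and 196 ± 30.5 TPM in EV RV cells and 289 ± 9.45 and 240 ± 14.9 TPM in Tox RV cells. *Zap70* was at 161 ± 38.4 and 193 ± 30.2 TPM and *Lcp2* at 135 ± 3.53 and 159 ± 12.3 TPM in EV RV and Tox RV cells. From *Cd3d* down to *Lcp2* the ranges of neighbours overlapped, although *Cd3d* exceeded *Lck*, *Cd4* exceeded *Zap70* and *Zap70* exceeded *Lcp2* in 4 of 4 libraries. *Cd3e* ranked 5 of the 9 genes in EV1 and 9 of 9 in the other libraries.

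For the comparison of the groups, counts were scaled between libraries with the TMM method and expressed as CPM, which does not correct for length. Of the 9 genes, 8 had a higher mean in Tox RV than in EV RV cells, by 1.11-fold to 1.33-fold, and *Cd3e* had a lower mean. The median log2 fold change of the 9 was 0.32, against 0.0036 over the 14143 genes tested, of which 50.4% were above 0. In 6 of the 9 (*Cd3d*, *Cd3g*, *Cd247*, *Cd4*, *Lat* and *Lcp2*) the lower Tox RV value exceeded the higher EV RV value, an arrangement found in 18.6% of all genes tested. None lay wholly below, against 17.4% of all genes, and groups without overlap in either direction made up 36% of all genes. These counts depended on the scale. In TPM the Tox RV pair lay wholly above the EV RV pair in 3 genes (*Cd247*, *Cd4* and *Lcp2*), against 11.6% of all genes in that direction.

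The edgeR quasi-likelihood test with Benjamini-Hochberg adjustment placed 0 of the 9 genes below an adjusted p-value of 0.05, and 0 of the 14143 genes tested did (0%). The adjusted p-values of the 9 genes lay between 0.897 and 0.902. At an unadjusted p-value below 0.05, the same test gave 0 of the 9 genes and 3.62% of all genes (152 with a higher and 360 with a lower Tox RV mean). With DESeq2, the tool named in the methods, 0 of the 9 and 22 of all genes with an adjusted value (0.121%) passed an adjusted p-value of 0.05, and *Cd3e* alone of the 9 was below an unadjusted p-value of 0.05 (3.21% of all genes). *Tox* itself, 12.8-fold higher in Tox RV cells by the fit, had an adjusted p-value of 0.490 in the same edgeR test. With 2 libraries in each group, a missed threshold in the edgeR test thus says little about the 9 genes. The intervals give the sizes that the data allow. DESeq2 gave *Tox* an adjusted p-value of 3.79e-24 from the same libraries, while the lowest among the 9 genes was 0.9995.

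**Figure D1:**
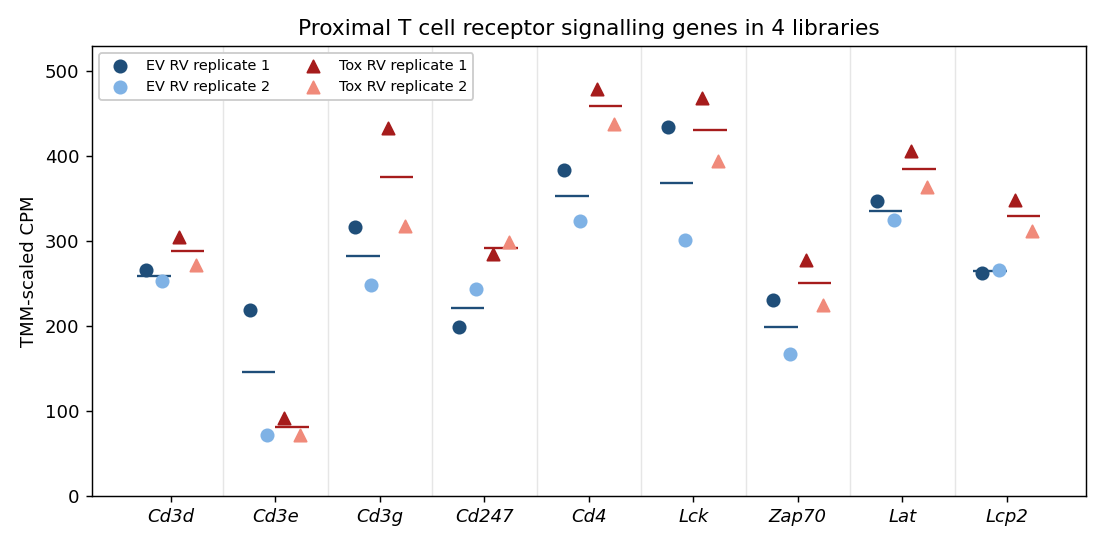
TMM-scaled CPM (linear axis from 0, not corrected for length) of the 9 genes in each of the 4 libraries, with circles for EV RV, triangles for Tox RV and a bar for the mean of each group of 2. Tox1 was the highest library for 7 of the 9 genes, and *Cd3e* in EV1, at 219 CPM, stood apart from the other 3 libraries, at 71.6 to 91.2 CPM.

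The genes of the CD3 chains lie together on chromosome 9 of mm10. *Cd3g* (44969572 to 44980431, minus strand) and *Cd3d* (44981786 to 44987339, plus strand) are transcribed away from start sites 1355 bases apart, and *Cd3e* (44998740 to 45009627, minus strand) points toward *Cd3d* with 11400 bases between their ends. The RefSeq promoters of all 3 (GRCm38.p6, the assembly of mm10) are given from 250 bases before to 50 bases after the start. They are reference sequences and were not read from the libraries. They cover chr9:44981536-44981835 on the plus strand for *Cd3d*, and chr9:45009562-45009861 and chr9:44980382-44980681 on the minus strand for *Cd3e* and *Cd3g*. Capitals mark matches, on either strand, to motifs chosen after the levels were seen. The E-box, bound by basic helix-loop-helix proteins, was searched as CANNTG. The motif for RUNX factors was searched as TGTGGT on both strands. The motif for factors of the ETS family was searched as CAGGAA on both strands. The motif for GATA factors was searched as AGATAA on both strands. The TATA box of core promoters was searched as TATAAA on both strands.
Cd3d: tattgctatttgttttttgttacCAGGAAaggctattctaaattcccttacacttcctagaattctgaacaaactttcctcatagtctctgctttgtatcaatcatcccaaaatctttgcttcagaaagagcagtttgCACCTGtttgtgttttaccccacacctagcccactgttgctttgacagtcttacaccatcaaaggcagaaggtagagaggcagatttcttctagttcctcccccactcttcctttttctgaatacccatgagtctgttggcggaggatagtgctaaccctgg
Cd3e: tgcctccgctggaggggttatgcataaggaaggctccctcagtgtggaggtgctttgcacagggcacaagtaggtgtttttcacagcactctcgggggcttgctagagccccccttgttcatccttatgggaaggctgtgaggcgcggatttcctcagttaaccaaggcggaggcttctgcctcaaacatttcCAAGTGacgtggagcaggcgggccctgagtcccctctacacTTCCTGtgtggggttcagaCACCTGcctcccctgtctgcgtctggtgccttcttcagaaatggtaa
Cd3g: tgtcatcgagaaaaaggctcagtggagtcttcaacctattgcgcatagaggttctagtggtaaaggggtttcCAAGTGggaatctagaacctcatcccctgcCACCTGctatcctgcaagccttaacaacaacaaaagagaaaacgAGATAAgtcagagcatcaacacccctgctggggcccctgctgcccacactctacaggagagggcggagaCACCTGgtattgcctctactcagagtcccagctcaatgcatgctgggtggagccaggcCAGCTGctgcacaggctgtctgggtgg
The *Cd3d* promoter held 1 E-box and 1 ETS match and that of *Cd3e* 2 E-boxes and 1 ETS match, whereas *Cd3g* held 4 E-boxes, 1 GATA match and no ETS match. The matches did not overlap in these 3 promoters. GC content was 42.3% for *Cd3d*, 56.7% for *Cd3e* and 54.0% for *Cd3g*. Of 11 promoters listed for 8 of the 9 genes, 11 held an E-box, 9 an ETS match, 3 a RUNX match, 2 a GATA match and 0 a TATA box. Over all 32851 promoters of this length the shares were 72.3%, 30.6%, 16.8%, 11.2% and 13.6%. A match describes letters in the window and was not examined for binding.

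CD3γ and CD3δ each pair with CD3ε in the receptor complex. *Cd3g* was at 317 (EV1), 248 (EV2), 434 (Tox1) and 318 CPM (Tox2). The groups were separated by a narrow margin, from 316.8 CPM in EV1 to 317.8 CPM in Tox2. The log2 fold change of 0.41 (standard error 0.23, 95% interval -0.16 to 0.98, edgeR quasi-likelihood test, Benjamini-Hochberg adjusted p = 0.897) was the highest of the 9 genes with all 4 libraries. It was 0.16 without Tox1, below *Cd247* (0.43), *Cd4* (0.31), *Lcp2* (0.23) and *Zap70* (0.17) in that fit. Without each of the others it was 0.25 to 0.62. *Cd3d* was at 265 (EV1), 253 (EV2), 305 (Tox1) and 272 CPM (Tox2). Its log2 fold change was 0.15 (standard error 0.17, 95% interval -0.26 to 0.56, edgeR quasi-likelihood test, Benjamini-Hochberg adjusted p = 0.902), the smallest in size of the 9, and it was 0.06 without Tox1 and 0.12 to 0.24 without each of the others.

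*Cd3e*, the gene of the ε chain, was at 219 (EV1), 71.9 (EV2), 91.2 (Tox1) and 71.6 CPM (Tox2). The rounded counts behind these values were 9249, 5471, 5767 and 3717. EV1 was therefore 3.05 times EV2 and 2.40 times the highest of the other 3 libraries (a gap of at least 1.5 times was found in 9.68% of all genes, and one as large downwards in 4.74%), while the 2 Tox RV libraries enclosed EV2. The log2 fold change over all 4 libraries was -0.84 (standard error 0.50, 95% interval -2.08 to 0.40, edgeR quasi-likelihood test, Benjamini-Hochberg adjusted p = 0.897). This direction rested on EV1. Without that library the log2 fold change was 0.17, and without EV2 it was -1.42. Each of these fits left a single EV RV library, without a replicate, so only the sizes are given. A log2 excess of EV1 over EV2 larger than that of *Cd3e* was found in 282 genes, or 1.99% of those tested. Equally large differences with EV2 above EV1 were not included in this count. The high share of *Rn45s* and the highest sums of NK and T cell markers were in the same library, EV1. Of the T cell markers, *Thy1* (525 CPM) and *Cd28* (565 CPM) were highest there. *Cd2* was at 308 CPM in EV1 and 330 CPM in EV2, and *Zbtb7b* was lowest in EV1, at 83.3 CPM. The NK sum of EV1 was mostly *Klrk1* (36.6 CPM) and *Klrd1* (14.2 CPM). The part of all these in the level of *Cd3e* was not tested. Of genes annotated over *Cd3e* by GENCODE, *Gm48719* on the other strand shares 135 exonic bases with it and was not analysed here.

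Ratios of TPM within a library do not depend on scaling between libraries. The ratio of *Cd3e* to *Cd3d* was 0.758 in EV1 and 0.260 in EV2, and 0.275 and 0.242 in Tox1 and Tox2. The ratio of *Cd3e* to *Cd3g* was 0.470 in EV1 and 0.143 to 0.197 in the other libraries. *Cd3g* over *Cd3d* varied much less, from 1.32 in EV2 to 1.92 in Tox1, with EV1 (1.61) between the Tox RV libraries. Among the mRNAs of the CD3 chains, the one that set EV1 apart was thus *Cd3e*. Its share of the summed TPM of the 9 genes was 9.78% in that library and 3.22% to 3.90% in the others.

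**Figure D2:**
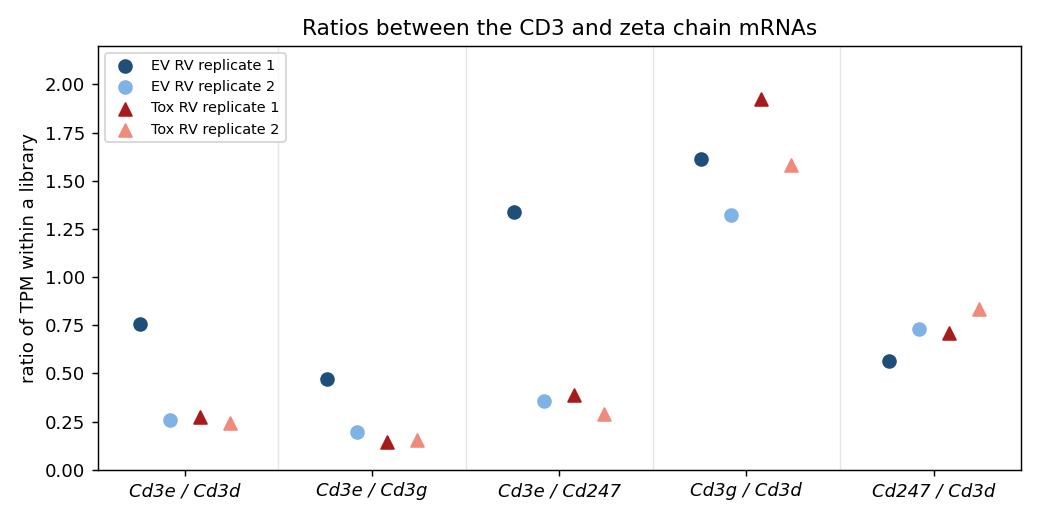
Ratios of TPM between genes of the CD3 and zeta chains within each library, on a linear axis from 0, with circles for EV RV and triangles for Tox RV. The 3 ratios with *Cd3e* on top were highest in EV1 (0.470 to 1.34), while *Cd247* over *Cd3d* was lowest there (0.566).

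*Cd247*, which encodes the zeta chain, lies on chromosome 1 (165788681 to 165877277, plus strand). It was at 199 (EV1), 244 (EV2), 285 (Tox1) and 299 CPM (Tox2). Unlike most of the other genes it was lowest in EV1 and highest in Tox2. The log2 fold change was 0.40 (standard error 0.18, 95% interval -0.04 to 0.85), and its unadjusted p-value was the lowest of the 9 (edgeR quasi-likelihood test, Benjamini-Hochberg adjusted p = 0.897). With a library left out it was 0.26 (without EV1) to 0.56 (without EV2). The exons of *Pou2f1* overlap those of *Cd247* on the other strand over 3007 bases, and use of strand in counting is not stated. *Pou2f1* had a log2 fold change of -0.14 (edgeR quasi-likelihood test, Benjamini-Hochberg adjusted p = 0.910) and was at 56.1 to 72.5 CPM.

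*Cd4*, on chromosome 6 (124864692 to 124888221, minus strand), encodes the coreceptor that binds MHC class II. Its level was 384 (EV1), 324 (EV2), 479 (Tox1) and 438 CPM (Tox2). Both Tox RV libraries were above both EV RV libraries in CPM and in TPM, by a log2 fold change of 0.38 (standard error 0.18, 95% interval -0.06 to 0.81, edgeR quasi-likelihood test, Benjamini-Hochberg adjusted p = 0.897). With a library left out it was 0.26 (without EV2) to 0.50 (without EV1). The group means were 354 ± 42.5 and 459 ± 28.9 CPM (SD, n = 2 each). All of these cells had been sorted as CD4+.

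*Lck*, on chromosome 4 (129548344 to 129573641, minus strand), encodes the Src family kinase that acts first. It was at 435 (EV1), 301 (EV2), 468 (Tox1) and 394 CPM (Tox2). EV1 lay between Tox1 and Tox2. The log2 fold change was 0.23 (standard error 0.23, 95% interval -0.34 to 0.80, edgeR quasi-likelihood test, Benjamini-Hochberg adjusted p = 0.897), and it was -0.0063 without EV2 and 0.51 without EV1.

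*Zap70*, on chromosome 1 (36761798 to 36782818, plus strand), encodes the kinase recruited to the ITAMs. It was at 231 (EV1), 167 (EV2), 277 (Tox1) and 225 CPM (Tox2), again with EV1 between Tox1 and Tox2. The log2 fold change was 0.34 (standard error 0.23, 95% interval -0.23 to 0.90, edgeR quasi-likelihood test, Benjamini-Hochberg adjusted p = 0.897). It was 0.13 without EV2, 0.17 without Tox1, 0.48 without Tox2 and 0.58 without EV1. The ratio of *Lck* to *Zap70* in TPM was 1.96 (EV1), 1.81 (EV2), 1.71 (Tox1) and 1.79 (Tox2). It varied less than the kinase levels in CPM, which differed between libraries of the same group by up to 1.44-fold. This was not particular to the kinases, since the ratio of *Lat* to *Lcp2* lay between 3.36 and 3.80. Both ratios were higher in both EV RV libraries than in either Tox RV library.

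*Lat*, on chromosome 7 (126363824 to 126369570, minus strand), encodes the membrane adaptor phosphorylated by ZAP-70. It was at 347 (EV1), 324 (EV2), 406 (Tox1) and 364 CPM (Tox2), a log2 fold change of 0.20 (standard error 0.17, 95% interval -0.21 to 0.61, edgeR quasi-likelihood test, Benjamini-Hochberg adjusted p = 0.897). The groups were separate in CPM and overlapped in TPM, and the log2 fold change was 0.11 without Tox1 and 0.16 to 0.28 without each of the others. *Lcp2*, on chromosome 11 (34046920 to 34092295, plus strand), encodes the cytosolic adaptor SLP-76. It was the steadiest gene in the EV RV libraries, at 263 (EV1) and 266 CPM (EV2), and was at 348 (Tox1) and 311 CPM (Tox2) after Tox transduction. Its log2 fold change was 0.32 (standard error 0.16, 95% interval -0.09 to 0.72, edgeR quasi-likelihood test, Benjamini-Hochberg adjusted p = 0.897), and omission of any 1 library left it at 0.23 to 0.40. *Lcp2* shares 282 exonic bases with *4930469K13Rik* on the other strand, which was not analysed here.

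**Figure D3:**
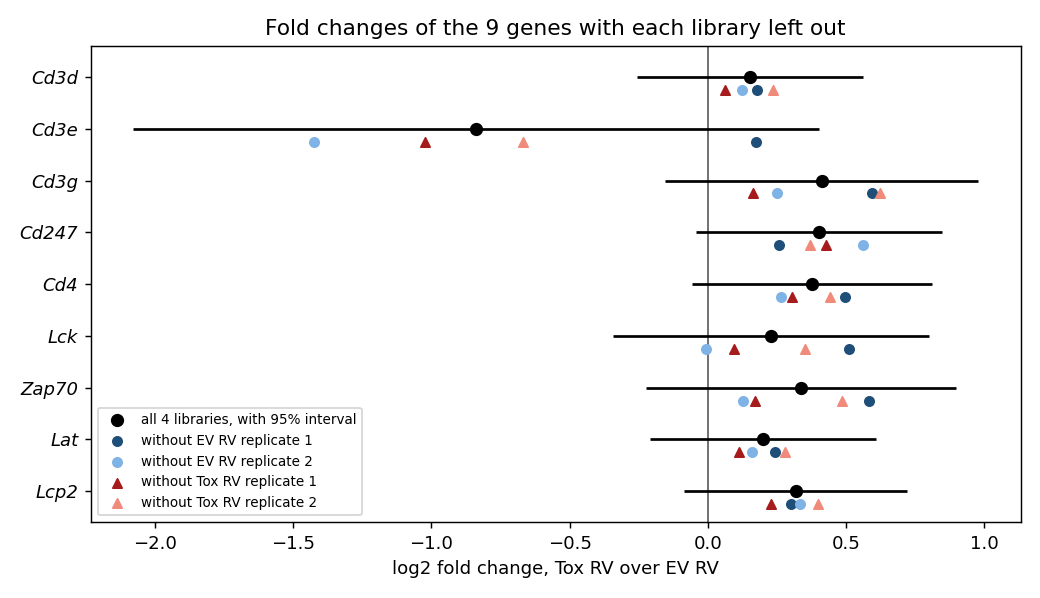
Log2 fold changes of Tox RV over EV RV for the 9 genes, with black points and lines for the fit to all 4 libraries and its 95% interval, and coloured symbols for fits that each left out 1 library. Every interval includes 0. The values without a library stayed above 0 for 7 genes, while *Cd3e* ranged from -1.42 to 0.17 and *Lck* from -0.0063 to 0.51.

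*Cd247*, *Lck* and *Zap70* were quantified from 5, 3 and 4 transcripts, and the other 6 genes from 1 transcript each. The mean transcript length that RSEM weights by isoform served as a readout besides the level. For *Zap70* it was 2199 and 2129 bases in EV1 and EV2 and 2139 and 2165 bases in Tox1 and Tox2. The EV RV libraries thus enclosed the Tox RV libraries, over a range of 3.23% of the mean. For *Cd247* and *Lck* the range over the 4 libraries was 0.543% and 0.0858%. No separation of the groups by isoform use was seen in these lengths.

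Other genes of the pathway were grouped by role, and the filter on low counts kept 49 of 49. A positive log2 fold change was seen in 26 and a negative one in 23, with a median of 0.02, and 0 were called after Benjamini-Hochberg adjustment in the edgeR test (0% of all genes). Below an unadjusted p-value of 0.05 were 4 genes higher and 1 lower in Tox RV cells, against 1.07% and 2.55% of all genes. The groups did not overlap in 19 genes, with the Tox RV pair above in 12 and below in 7 (18.6% and 17.4% of all genes).

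Among the other proximal kinases and the anchor of Csk, 6 of 7 had a positive log2 fold change, with a median of 0.10. The Tec family kinase *Tec* was at 5.97 (EV1), 8.67 (EV2), 13.02 (Tox1) and 11.9 CPM (Tox2), a log2 fold change of 0.77 (standard error 0.25, edgeR quasi-likelihood test, Benjamini-Hochberg adjusted p = 0.897). Partners of LAT and SLP-76 were evenly divided, with 9 of 19 positive and a median of -0.0053. The exchange factor *Vav1*, which binds SLP-76, was at 126 (EV1), 120 (EV2), 196 (Tox1) and 173 CPM (Tox2), a log2 fold change of 0.58 (standard error 0.17, edgeR quasi-likelihood test, Benjamini-Hochberg adjusted p = 0.897). In both genes the groups did not overlap.

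Of the downstream branches (Ras, NF-κB and calcium) 4 of 11 were positive, with a median of -0.08 and a range of -0.24 to 0.15. The lowest was the calcium channel gene *Itpr2*, at 96.4 (EV1), 79.5 (EV2), 76.1 (Tox1) and 72.7 CPM (Tox2) (edgeR quasi-likelihood test, Benjamini-Hochberg adjusted p = 0.897). Inhibitors of proximal signalling had the widest range, from -0.58 to 0.60, with 7 of 12 positive and a median of 0.13. The phosphatase gene *Ptpn6* (SHP-1) was at 218 (EV1), 182 (EV2), 335 (Tox1) and 274 CPM (Tox2), a log2 fold change of 0.60 (edgeR quasi-likelihood test, Benjamini-Hochberg adjusted p = 0.897). The adaptor gene *Sla2* had a log2 fold change of 0.60 as well (edgeR quasi-likelihood test, Benjamini-Hochberg adjusted p = 0.897), with levels of 48.8 (EV1), 41.2 (EV2), 75.3 (Tox1) and 61.2 CPM (Tox2). The ubiquitin ligase gene *Cbl* was lower in both Tox RV libraries, at 129 (EV1), 88.8 (EV2), 70.9 (Tox1) and 74.6 CPM (Tox2), a log2 fold change of -0.58 (edgeR quasi-likelihood test, Benjamini-Hochberg adjusted p = 0.897).

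**Figure D4:**
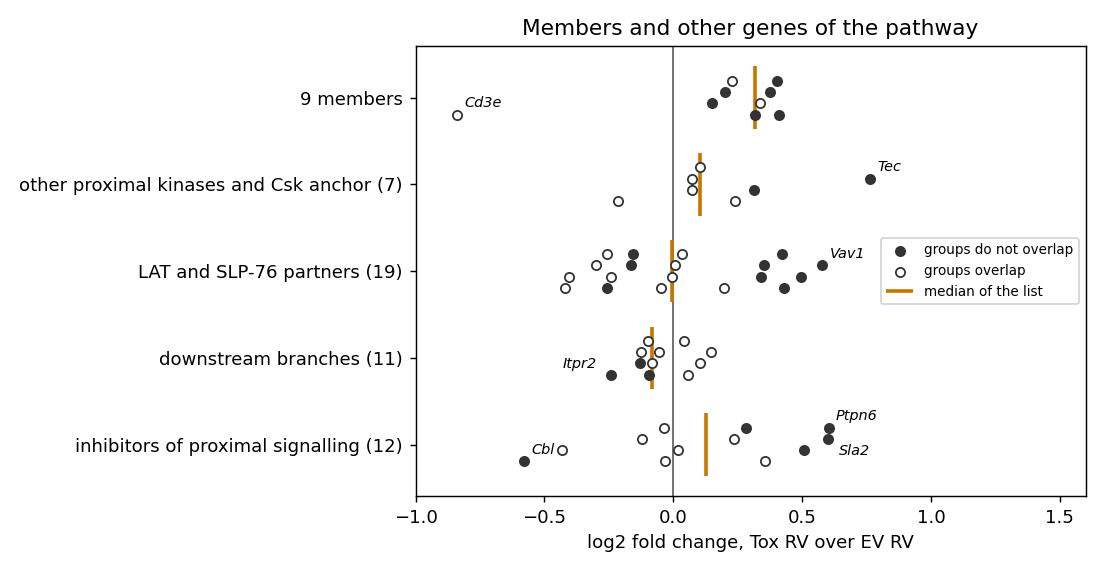
Log2 fold changes of Tox RV over EV RV for the 9 genes and for 4 lists of other pathway genes, the number of genes in parentheses. Filled points are genes whose groups did not overlap in CPM and orange bars are medians, 0.32 for the 9 genes and between -0.08 and 0.13 for the lists.

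The genes whose pattern over the 4 libraries was most like the mean of the 9 were sought among 8504 others with at least 10 CPM, by the root mean square distance between log2 CPM centred on each gene's mean. Among the closest were *Apbb3*, *2410006H16Rik*, *BC037034* and *Uvssa*, at distances of 0.0091 to 0.024 on the log2 scale. The groups overlapped in each of these, with log2 fold changes of 0.19 to 0.22. Of the 9 genes themselves *Lck* was closest to their mean (0.072) and *Cd3e* farthest (0.62). *Cd3e* had a centred value of 1.12 in EV1, where the mean of the 9 was 0.07, so this gene raised the mean in that library. The mean pattern was highest in Tox1 and lowest in EV2, at 0.21 above and 0.27 below the average on the log2 scale (centred values 0.21 and -0.27).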

How the data were processed

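RNA-seq was carried out on 2 EV RV and 2 Tox RV libraries, described by the study as biological replicates, with 2 mice in each group. The authors checked reads with fastqc, aligned them to mm10 transcripts with bowtie and quantified genes with RSEM, 1 library per file, and versions and use of strand are not given in the sources used here. The deposited expected counts are RSEM's read estimates per gene, not normalized, and the deposited TPM are transcripts per 1000000. A series-wide table named as TPM was not used. Expected counts were rounded and fitted with edgeR 4.0.16 under R 4.3.3 (filterByExpr, minimum count 10, TMM, glmQLFit and glmQLFTest, no block), which kept 14143 of 24369 genes, with a common biological coefficient of variation of 0.232. Standard errors came from the fold change and the F statistic, and 95% intervals from the t distribution with the total degrees of freedom. Adjustment followed Benjamini and Hochberg over all genes tested. A call required an adjusted p-value below 0.05 and, in the counts of genes over settings, a fold above 2. Alternatives were DESeq2 1.42.0, other scalings, no filter, the replicate number as a block, limma 3.58.1 on log2(TPM + 1) and log2(TPM + 0.1), and leaving out each library.

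The members and lists were chosen with earlier results of these data known. Genes outside the 9 were named by rule, which was an unadjusted p-value below 0.05 or, in a list with fewer than 2 of these, the largest log2 fold change, together with the 5 genes of most similar pattern, of which 1 is not reported here. The genes with a library standing apart were named after their values were seen. The constant genes of the TCR chains were not analysed here. The replicates differed by more than counting error (chi-square per degree of freedom 412 for EV RV and 74.3 for Tox RV).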

Additional observations from a re-analysis of the deposited data

How the results depend on the processing

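The genes past a fold of 2 and an adjusted p-value of 0.05 numbered 0 with all 4 libraries, 22 with DESeq2, 22 without the filter on low counts and 1 to 322 with a library left out (1 without EV RV replicate 1, 322 without EV RV replicate 2, 12 without Tox RV replicate 1 and 23 without Tox RV replicate 2). Those fits take the single library of a group to vary like the other group. With the replicate number as a block there were 16, none of them among the 9 genes. The numbers are not known to mark a mouse, and the differences between replicates 1 and 2 had a correlation of 0.302 over genes between the groups. In the block fit *Cd3e* had an edgeR adjusted p of 0.503. The median over the 9 genes of the log2 fold change, 0.32, was 0.44 with library totals, which moved the median of all genes to 0.12, and 0.23 in limma on log2(TPM + 1). It was 0.16 to 0.37 with a library left out, the lowest without EV RV replicate 2 and, at 0.16, also without Tox RV replicate 1. The number of the 9 with separate groups, all higher in Tox RV, was 6 (18.6% of all genes). It was 5 under median-of-ratios scaling (17.9%), 8 with library totals (27.5%) and 3 in limma's log2(TPM + 1) values (11.6%). The percentages are the shares of all genes with separate groups and higher Tox RV values in the same setting. A direction reversed for *Cd3e* without EV RV replicate 1 (0.17, and -1.42 without EV RV replicate 2) and for *Lck* without EV RV replicate 2 (-0.0063, and 0.51 without EV RV replicate 1). Of 108 values of single genes under the alternatives, 105 kept direction and side of the threshold. The exceptions were the 2 reversals and *Cd3e* without EV RV replicate 2 (-1.42). That fit left a single EV RV library, so only the size is given. The cause of these differences was not tested. The 9 genes had at least 3717 counts in each library.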

Other observations

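In 4 of the 58 genes made up of the 9 and the other pathway genes, EV RV replicate 1 was at least 1.5 times every other library, against 9.68% of all genes tested. These were *Cd3e*, the adaptor genes *Fyb* (ADAP) and *Sh2d2a* (TSAd) and the ubiquitin ligase gene *Cblb*. *Fyb* was at 181 CPM in that library and at 92.4 to 104 CPM in the others, *Sh2d2a* at 254 and 134 to 169 CPM, and *Cblb* at 690 and 383 to 419 CPM. The adaptor gene *Dok2* lay below the others by that factor, at 57.4 CPM against 98.2 to 116 CPM, and 4.74% of all genes did.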
